A study of Mus musculus with 27 samples.

Results

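The bile acid synthesis enzymes described here are 9 genes chosen by name, Cyp7a1, Cyp8b1, Cyp27a1, Cyp7b1, Hsd3b7, Akr1d1, Slc27a5, Amacr and Baat, out of 21848 genes in the table of counts. Reads were counted on 8 of the 9. Hsd3b7 had 0 counts in 27 of 27 libraries and could not be tested. The libraries were bulk RNA-seq (SMARTseq2) of primary mouse liver cells on a C57BL/6 background, with 3 libraries in each of 9 conditions. Freshly isolated hepatocytes, which were not cultured, were the reference. Hepatocyte organoids (HepOrgs) were grown from primary hepatocytes in Matrigel and were taken at passage 2, either in HM-Wnt, an expansion medium with growth factors and Wnt conditioned medium, or after a switch to a minimal medium (MM) that lacks those growth factors but also holds Wnt conditioned medium. They were collected at 1 week (7 days) or 2 weeks (14 days). Periportal assembloids were kept in MM and combined 10 HepOrgs with 1000 cholangiocytes and either 250 portal mesenchymal cells (homeostatic) or 2500 of them (fibrotic-like), and were collected at 1 week or 2.5 weeks (18 days). The study's methods give adult donors of both sexes, mesenchymal cells sorted from Pdgfra reporter mice and assembloids picked by hand, so the assembloids hold several cell types in proportions that were not measured in these libraries. All libraries are labelled WT with a single exception, fresh replicate 3, whose title says WT and whose genotype label says MDR2-het. Nothing in the labels says whether replicates came from separate animals, and p-values then measure the spread between these libraries, which may be technical.

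Bile acids are made from cholesterol in hepatocytes. In the classic pathway the sterol ring is modified first, starting with Cyp7a1, the rate-limiting enzyme, and Cyp8b1 adds the hydroxyl group that turns the product towards cholic acid. In the alternative pathway Cyp27a1 first oxidises the side chain in mitochondria and Cyp7b1 then modifies the ring. Hsd3b7 and Akr1d1 complete the changes to the ring in both routes, Slc27a5 and Amacr prepare the side chain for shortening in peroxisomes, and Baat joins the finished acid to taurine or glycine. In liver, bile acids hold back the Cyp7a1 and Cyp8b1 transcripts. This feedback runs through the receptor Nr1h4 (FXR), the repressor Nr0b2 (SHP) and signalling through Fgfr4 and Klb.

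Total counts ranged from 30289364 to 65348596 per library (median 43727965). All 10 hepatocyte markers, among them Alb and Apoa1, had counts in all 27 libraries. Their summed level, in CPM (counts scaled to the TMM-normalised library size), was 146600 to 171300 in freshly isolated hepatocytes and 95930 to 314800 in HepOrgs. Much of this sum was Trf, which had 120300 to 209700 CPM in HM-Wnt at 1 week against 54800 to 60460 CPM in fresh hepatocytes. As a mean log2 level, the 10 markers were lower in every HepOrg library (11.32 to 12.57) than in fresh hepatocytes (12.83 to 13.02). Replicate 2 of the homeostatic assembloids at 1 week stood apart, with 4711 CPM of hepatocyte markers against 106900 and 213100 in the other 2 libraries of its group, and counts on 8465 genes against 14016 or more in every other library. Results that rest on this library are given with and without it. HepOrgs carried more of the cholangiocyte marker list than fresh hepatocytes (summed level 3533 to 15480 against 11.6 to 142 CPM, with 0 to 1 against 1 to 4 of its 6 genes at 0), nearly all of it from Spp1. Endothelial markers summed to 0.0560 to 2.30 CPM in cultures against 38.2 to 184 CPM in fresh hepatocytes, and immune markers to 0.0187 to 75.7 against 34.6 to 319 CPM. The 75.7 CPM was MM replicate 3 at 2 weeks, whose group otherwise had 7.52 and 17.7 CPM. Among the immune markers Cd68 was higher on average in HepOrgs, with group means of 17.7 to 33.1 CPM against 4.63 CPM in fresh hepatocytes. In such bulk samples, fewer cells of a type and less RNA per cell cannot be told apart, and the part of other cell types in the differences from fresh hepatocytes was not tested.

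In GRCm39 with GENCODE M39 the members lie on 7 chromosomes, all as protein-coding genes. Of these, Cyp8b1, Cyp7b1 and Baat are shown by the 250 bases before the start of their canonical transcript, read from the GRCm39 genome, because they were among the genes with the largest differences between media described below. Capitals mark a match to CAAGGNCA, a binding sequence of LRH-1 (the product of Nr5a2), to CAAAGTCCA, a binding sequence of HNF4, or to TATAAA, the TATA box, searched on both strands. Each sequence is 5′ to 3′ on the strand of its gene, which is the reverse strand for all of these genes.
Cyp8b1, chr9:121745372-121745621: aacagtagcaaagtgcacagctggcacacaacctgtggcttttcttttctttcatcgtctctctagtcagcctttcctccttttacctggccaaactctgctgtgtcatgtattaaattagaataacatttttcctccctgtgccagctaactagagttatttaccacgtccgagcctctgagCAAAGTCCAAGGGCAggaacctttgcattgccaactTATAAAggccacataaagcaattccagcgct
Cyp7b1, chr3:18297741-18297990: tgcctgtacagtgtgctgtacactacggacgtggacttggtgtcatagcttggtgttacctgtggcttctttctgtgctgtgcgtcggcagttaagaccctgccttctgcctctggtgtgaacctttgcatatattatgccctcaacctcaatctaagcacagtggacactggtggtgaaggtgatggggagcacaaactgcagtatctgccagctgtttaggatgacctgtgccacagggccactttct
Baat, chr4:49506564-49506813: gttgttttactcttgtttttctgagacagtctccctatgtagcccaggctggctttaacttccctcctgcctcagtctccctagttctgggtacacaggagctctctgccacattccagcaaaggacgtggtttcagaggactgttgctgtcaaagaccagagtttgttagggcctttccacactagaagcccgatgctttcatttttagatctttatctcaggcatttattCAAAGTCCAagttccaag

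The LRH-1 letters stood 60 to 53 bases before the start of Cyp8b1, where they shared 2 bases with an HNF4 match at 67 to 59 bases, and Baat had an HNF4 match at 18 to 10 bases. A TATA box stood 31 to 26 bases before the start of Cyp8b1. Over all 9 members, the LRH-1 letters were in 3, the HNF4 letters in 2 and TATAAA in 2, while GTTAATNAT (HNF1) and TTNNGCAA (C/EBP) were in 0. Of 21757 promoters of the same length, 5.31% held the LRH-1 letters, 0.372% the HNF4 letters, 11.9% TATAAA, 0.735% the HNF1 letters and 9.34% the C/EBP letters. The Cyp7b1 sequence held no match, which says only that these letters are not in this window.

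In freshly isolated hepatocytes the enzymes differed in level by more than an order of magnitude. Per kilobase of exon, Slc27a5, the ligase that activates bile acids, was highest at 615 ± 148 CPM per kb (SD, n = 3), followed by Cyp8b1 at 241 ± 152 and Cyp27a1 at 163 ± 9.63. Cyp7a1 was lowest of the 8 at 36.0 ± 32.5 CPM per kb and varied most between the fresh libraries, which had 126, 28.7 and 297 CPM. Cyp27a1 varied least, with 507, 552 and 568 CPM. Slc27a5 had the highest mean per kb of the 8 in every condition, whereas Cyp8b1 went from second in fresh hepatocytes to last in HM-Wnt HepOrgs at both times.

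Ordered by median level over the 9 conditions, fresh hepatocytes came first for all 8 members. The share of all genes with fresh hepatocytes first was not computed, so this order is a description of the members only. Fresh libraries overlapped the condition next in order for Cyp7a1, where 28.7 CPM in a fresh library lay below 31.1 CPM in an MM library at 1 week, and Baat, where 186 CPM in a fresh library lay below 229 CPM in a late homeostatic library. Below that, most neighbours in the order overlapped. HM-Wnt HepOrgs at 2 weeks were last for Cyp8b1 and Cyp7b1, homeostatic assembloids at 1 week for Cyp7a1, and fibrotic-like assembloids at 1 week for the other 5. The place of Cyp7a1 rested on the library low in hepatocyte markers (23.5, 0 and 0.431 CPM). Without it the median of that condition was 11.95 CPM, in place 3 of 9, and fibrotic-like assembloids at 1 week were last (0.442 CPM).

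Hsd3b7 (chr7:127399597-127402989, forward strand) encodes the dehydrogenase that follows the first hydroxylation of the ring. A count of 0 allows up to 3 counts, which is 0.0323 to 0.131 CPM depending on the library, and this covers counting error only. The gene shares 52.6% of its exon bases with Gm49388 on the same strand, which itself had 0 to 2 counts, and 67.7% with 9430064I24Rik on the opposite strand. How reads in shared exons were assigned is not given in the sources used here, so its 0 is the value as deposited and not a statement about its expression.

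**Figure D1:**
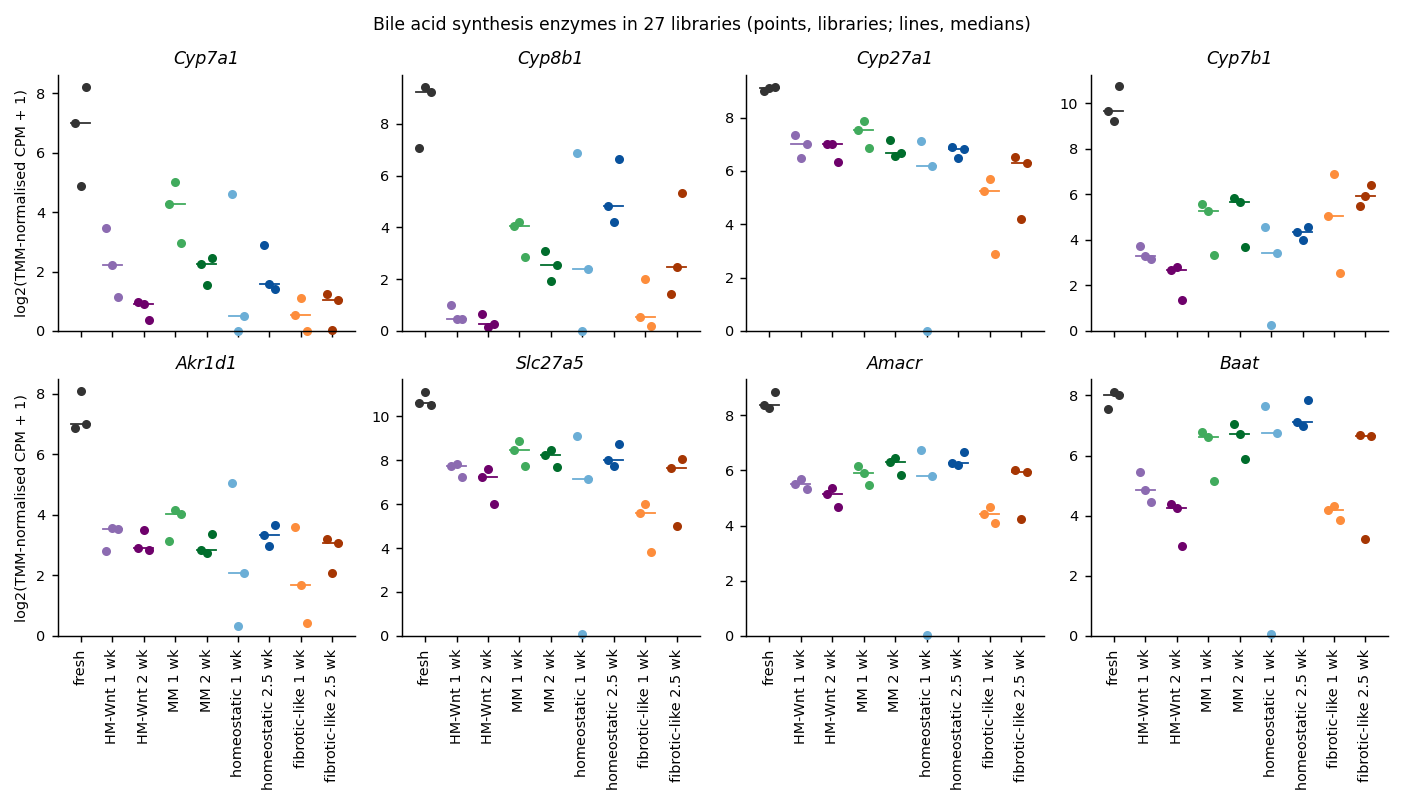
Levels of the 8 enzymes with counts, as log2(TMM-normalised CPM + 1), by condition; each point is a library (n = 3 per condition) and each line the median. Fresh hepatocytes had the highest median in every panel, and Cyp8b1 in HM-Wnt HepOrgs lay near 0 on this scale (0.101 to 1.02 CPM).

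The first comparison asked how far HepOrgs lay from freshly isolated hepatocytes. All 8 tested enzymes were lower in HepOrgs than in fresh hepatocytes in both media and at both times (edgeR quasi-likelihood test with Benjamini-Hochberg adjustment over all genes, 0.05 as the threshold). Across all 13396 genes tested, 24.8% were lower in HM-Wnt at 1 week, 25.7% in HM-Wnt at 2 weeks, 21.3% in MM at 1 week and 20.0% in MM at 2 weeks. The median log2 fold change of the 8 enzymes was −3.75 and −4.29 in HM-Wnt at 1 and 2 weeks and −2.85 and −3.60 in MM, while that of all genes lay between −0.01 and 0.03. The 4 comparisons share the 3 fresh libraries.

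The values are given first for Cyp8b1, Cyp7b1 and Cyp7a1. Cyp8b1 (chr9:121743422-121745371), the enzyme of the cholic acid branch, had 133, 688 and 592 CPM in fresh hepatocytes. In HM-Wnt HepOrgs it had 1.02, 0.387 and 0.367 CPM at 1 week and 0.555, 0.101 and 0.199 CPM at 2 weeks. No library of either group came near the other, and the difference was −9.67 ± 0.90 on the log2 scale (SE; 814-fold lower, adjusted p = 2.64e-06) and −10.70 ± 0.94 (1668-fold lower, adjusted p = 1.53e-06). In MM it had 15.7, 17.6 and 6.30 CPM at 1 week and 7.60, 2.85 and 4.89 CPM at 2 weeks, differences of −5.17 ± 0.72 and −6.51 ± 0.77.

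Cyp7b1 (chr3:18117411-18297740), which acts on oxysterols in the alternative pathway, had 801, 601 and 1719 CPM in fresh hepatocytes. It had 12.2, 8.82 and 7.95 CPM in HM-Wnt at 1 week, and 46.8, 37.9 and 9.24 CPM in MM at 1 week. All HepOrg libraries lay below all fresh ones, with log2 differences of −6.80 ± 0.86 and −7.93 ± 0.91 in HM-Wnt and of −5.06 ± 0.79 and −4.70 ± 0.78 in MM (highest adjusted p = 4.21e-04). Cyp7a1 (chr4:6265612-6275633), the rate-limiting enzyme, had 10.1, 3.66 and 1.23 CPM in HM-Wnt at 1 week and 0.983, 0.855 and 0.284 CPM at 2 weeks. Its log2 differences from fresh were −4.96 ± 0.95 and −7.76 ± 1.10 in HM-Wnt, and −3.01 ± 0.86 (adjusted p = 0.0128) and −5.48 ± 0.97 in MM. The MM libraries at 1 week (18.4, 31.1 and 6.83 CPM) overlapped the fresh ones.

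The other 5 enzymes were lower by −4.59 to −1.28 on the log2 scale. Cyp27a1 (chr1:74752314-74777056), the mitochondrial enzyme that starts the alternative pathway, had 161, 87.4 and 127 CPM in HM-Wnt at 1 week and 143, 93.3 and 102 CPM in MM at 2 weeks, against 507 to 568 CPM in fresh hepatocytes. Its log2 differences from fresh were between −2.32 and −1.63 in the 4 comparisons. Part of its exons (32.8% of exon bases) is shared with Prkag3 on the opposite strand, which had 0 to 29 counts. Akr1d1 (chr6:37506822-37545751), the reductase of the steroid ring, was lower by −4.59 to −3.70 on the log2 scale.

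Slc27a5 (chr7:12722273-12732137) was lower by −3.73 to −2.35 on the log2 scale and the racemase Amacr (chr15:10981827-10996712) by −3.52 to −2.31. Baat (chr4:49489289-49506563), the conjugating enzyme, had 186, 278 and 260 CPM in fresh hepatocytes. It had 42.9, 28.1 and 20.8 CPM in HM-Wnt at 1 week, and 130.3, 105 and 57.5 CPM in MM at 2 weeks. Its difference from fresh was therefore largest in HM-Wnt (−3.03 ± 0.51 and −4.05 ± 0.54) and smallest in MM at 2 weeks (−1.28 ± 0.48, 2.44-fold lower, adjusted p = 0.048).

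**Figure D2:**
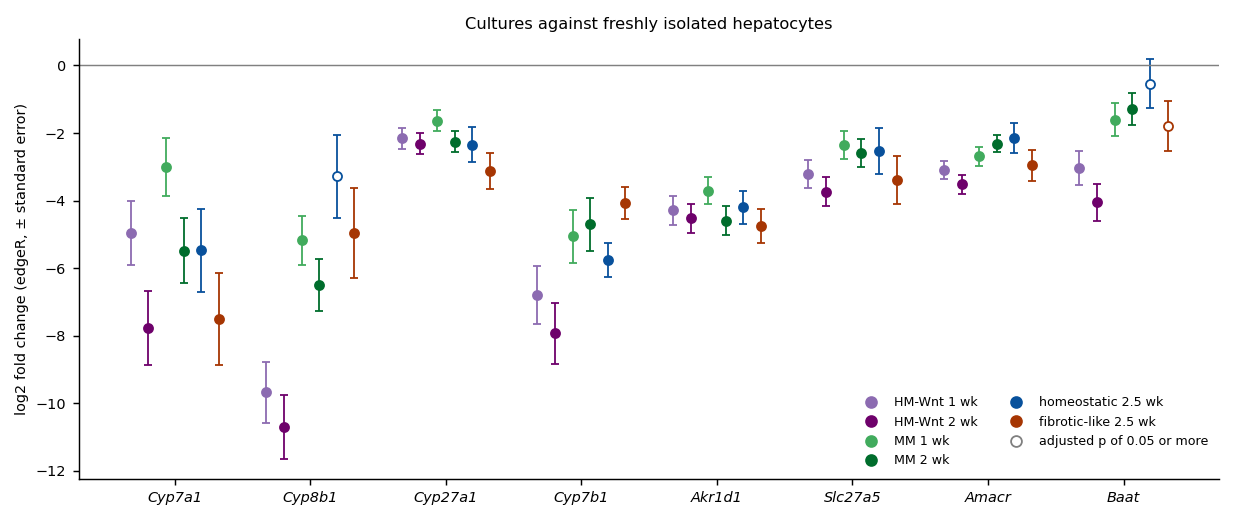
Log2 fold changes of the 8 enzymes in cultures against freshly isolated hepatocytes; points are edgeR estimates, bars the standard error, and open points have an adjusted p of 0.05 or more. Every HepOrg point lies below 0, from −10.70 for Cyp8b1 in HM-Wnt at 2 weeks to −1.28 for Baat in MM at 2 weeks.

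Leaving out the library labelled MDR2-het ended 2 of these calls. Without fresh replicate 3, which had the most Cyp7a1 and Cyp7b1, Cyp7a1 in MM at 1 week was lower by −2.03 ± 0.83 with an edgeR adjusted p = 0.0742, and Baat in MM at 2 weeks by −1.20 ± 0.54 with an adjusted p = 0.109. Cyp7a1 in MM at 1 week also lost its call without MM replicate 3 (−2.59, adjusted p = 0.051), as did Baat at 1 week (−1.21, adjusted p = 0.0628). The call on Baat at 2 weeks was also lost when any of 11 other libraries was left out (fresh replicates 1 and 2, HM-Wnt replicates 1 to 3 at 1 week and 1 and 2 at 2 weeks, MM replicates 1 and 2 at 1 week and 2 and 3 at 2 weeks), with log2 differences from −1.41 to −0.98 and adjusted p = 0.0518 to 0.172.

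In a fit of all 27 libraries, whose shared spread includes the assembloids, 4 and 7 of 8 enzymes were lower in HM-Wnt at 1 and 2 weeks (8.56% and 9.91% of all genes), 2 in MM at 1 week (5.33%) and 3 in MM at 2 weeks (5.35%). On log2(TPM + 1) the median of all genes against fresh rose to between 0.40 and 0.68, and the split of calls in HM-Wnt at 1 week went from 3340 higher and 3323 lower to 4160 higher and 1280 lower. Scaled to the 10 hepatocyte markers, the median of all genes was 0.64, 1.29, 0.95 and 0.89 in HM-Wnt at 1 and 2 weeks and in MM at 1 and 2 weeks. On that scale 8 of 8 enzymes were lower in HM-Wnt at 1 and 2 weeks (10.1% and 8.23% of all genes) and in MM at 1 week (6.78%), and 7 of 8 in MM at 2 weeks (5.94%), where Baat was at −0.49 ± 0.33 (adjusted p = 0.228).

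The comparison of media asked what the switch from HM-Wnt to MM changed. Taken over both times, 6 of 8 enzymes were higher in MM, against 11.5% of the 12989 genes tested, and 0 were lower. The median log2 difference of the 8 enzymes was 1.55 and that of all genes −0.02. Mesenchyme markers summed to 65.7 to 239 CPM in MM against 8.22 to 63.9 CPM in HM-Wnt at 1 week, and to 16.8 to 172 against 2.36 to 29.5 CPM at 2 weeks, with 0 to 2 and 0 to 4 of their 9 genes at 0, and their part in the difference between media was not tested. Cyp8b1 rose most, by 4.35 ± 0.48 (20.3-fold, edgeR adjusted p = 2.73e-04), and all 6 of its MM libraries (2.85 to 17.6 CPM) lay above all 6 HM-Wnt libraries (0.101 to 1.02 CPM).

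Cyp7b1 rose by 2.48 ± 0.50 (adjusted p = 0.00594), Cyp7a1 by 2.11 ± 0.54 (adjusted p = 0.0175) and Baat by 2.09 ± 0.37 (adjusted p = 0.00301). Slc27a5 rose by 1.00 ± 0.28 (adjusted p = 0.028) and Amacr by 0.81 ± 0.17 (adjusted p = 0.00799). The remaining enzymes did not pass the test, with 0.29 ± 0.23 for Cyp27a1 (adjusted p = 0.38) and 0.26 ± 0.24 for Akr1d1 (adjusted p = 0.474). The enzymes that rose thus included the rate-limiting enzyme, the cholic acid branch, the ring step of the alternative pathway and conjugation.

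At 1 week, 1 of 8 enzymes was higher in MM (1.76% of all genes), Cyp8b1 with 4.49 ± 0.67 (adjusted p = 0.00987). At 2 weeks, 4 of 8 were higher (6.84% of all genes): Cyp8b1 by 4.21 ± 0.69, Cyp7b1 by 3.25 ± 0.73, Baat by 2.78 ± 0.53 and Amacr by 1.23 ± 0.25 (highest adjusted p = 0.0172). Baat had 20.0, 17.9 and 6.92 CPM in HM-Wnt and 130.3, 105 and 57.5 CPM in MM at 2 weeks. Cyp7b1 had 5.47, 6.11 and 1.53 CPM in HM-Wnt and 56.9, 49.4 and 12.1 CPM in MM at that time. Neither gene overlapped between media at 2 weeks.

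HepOrg libraries with the same replicate number deviated together from their group means, although the labels do not say what such libraries share. With the replicate number as a block, 4 of 8 enzymes were higher in MM at 1 week (5.62% of all genes): Cyp8b1 by 4.59 ± 0.49, Cyp7b1 by 1.34 ± 0.37, Baat by 1.29 ± 0.20 and Slc27a5 by 0.79 ± 0.19. At 2 weeks 6 of 8 were higher with the block (11.0% of all genes), which adds Cyp7a1 at 2.61 ± 0.70 and Slc27a5 at 1.23 ± 0.19. Without the block, the call on Cyp7b1 at 2 weeks was lost when any of 4 libraries was left out (HM-Wnt replicates 1 and 3, MM replicates 1 and 2; 2.84 to 3.44, adjusted p = 0.0567 to 0.0612).

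**Figure D3:**
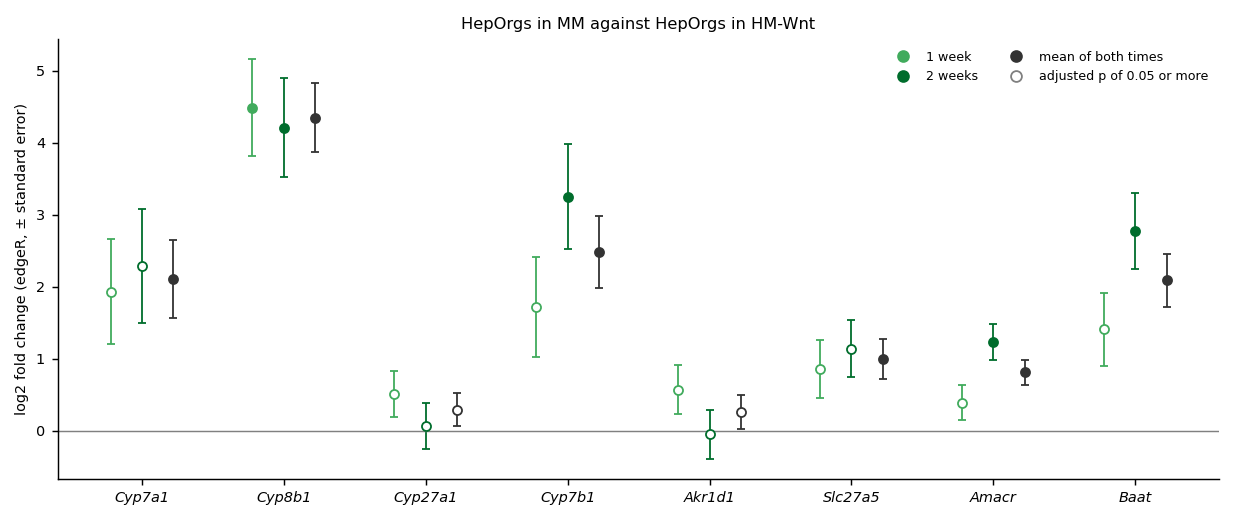
Log2 fold changes of the 8 enzymes in MM against HM-Wnt HepOrgs at 1 week, at 2 weeks and as the mean of both times; points are edgeR estimates without the block, bars the standard error, and open points have an adjusted p of 0.05 or more. Cyp8b1 lies above 4 at both times, whereas Cyp27a1 and Akr1d1 lie between −0.05 and 0.57.

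Several settings limit these calls. In the fit of all 27 libraries 0 of 8 enzymes passed over both times (0.355% of all genes were higher), with Cyp8b1 at 4.31 (adjusted p = 0.11). Slc27a5 lost its call over both times when any of 6 libraries was left out (HM-Wnt 1 week replicate 3 and 2 weeks replicate 1, MM replicates 1 and 2 at both times; 0.86 to 1.03, adjusted p = 0.0531 to 0.0695), and Amacr lost it on the hepatocyte marker scale (0.75 ± 0.22, adjusted p = 0.0636). The split of all calls over both times went from 1488 higher and 1304 lower to 730 and 962 on log2(TPM + 1).

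Whether the effect of the medium differed between 1 and 2 weeks was tested as the difference of both effects. It passed for 0 enzymes and 0 genes in all (951 genes had an unadjusted p under 0.05, and DESeq2 called 46 genes, no enzyme among them). The largest differences were 1.52 ± 0.96 for Cyp7b1 and 1.37 ± 0.71 for Baat (adjusted p = 0.678 and 0.673). Between 1 and 2 weeks within a medium, edgeR called 0 genes in HM-Wnt and 2 in MM, no enzyme among them (1134 and 1337 genes at an unadjusted p under 0.05). Cyp7a1 was at −2.80 ± 0.79 in HM-Wnt (adjusted p = 0.556) and at −2.44 ± 0.74 in MM (adjusted p = 0.252), and was the enzyme that DESeq2 called lower at 2 weeks in each medium, among 22 and 308 genes called.

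Assembloids at 2.5 weeks, the longest cultures, were also set against fresh hepatocytes. In homeostatic assembloids 6 of 8 enzymes were lower (15.2% of 13730 genes), with a median log2 difference of −2.91 against 0.02 for all genes. In fibrotic-like assembloids 7 of 8 were lower (20.9% of genes), with a median of −3.73 against 0.05. Cyp7a1 was at −5.47 ± 1.22 (adjusted p = 0.0106) and −7.50 ± 1.35 (adjusted p = 0.00259) in edgeR, and Cyp7b1 at −5.75 ± 0.51 and −4.06 ± 0.47. These were the largest differences of the homeostatic group, and Cyp7a1 that of the fibrotic-like group.

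Baat was nearest to its fresh level. It had 139, 126 and 229 CPM in homeostatic and 102, 8.39 and 99.7 CPM in fibrotic-like assembloids at 2.5 weeks, against 186 to 278 CPM in fresh hepatocytes. Its differences, −0.54 ± 0.72 (adjusted p = 0.599) and −1.78 ± 0.74 (adjusted p = 0.0776), did not pass, and the second passed without fibrotic-like replicate 2 (−1.24, adjusted p = 0.0113). Cyp8b1 had 27.2, 17.3 and 99.5 CPM in homeostatic assembloids, all below the fresh libraries, with a difference of −3.28 ± 1.23 (adjusted p = 0.0718) that passed without fibrotic-like replicate 3 (−3.28, adjusted p = 0.026), in DESeq2, with the replicate block and on the hepatocyte marker scale.

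Some calls in homeostatic assembloids rested on single libraries. Slc27a5 (−2.54 ± 0.68, edgeR adjusted p = 0.0222) had an adjusted p = 0.0795 without homeostatic replicate 1 and 0.086 without replicate 2, and Cyp7a1 had 0.0504 without replicate 2. In the fit of all 27 libraries 2 of 8 enzymes were lower in this group, against 5.57% of all genes. The split of all calls moved from 2265 higher and 2091 lower to 2096 and 716 on log2(TPM + 1) in homeostatic assembloids, and from 3532 and 2863 to 5531 and 831 in fibrotic-like ones.

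Homeostatic and fibrotic-like assembloids differ in how much mesenchyme was added, and were compared at matched times. In edgeR, 0 of 8 enzymes and 0% of 14253 genes passed in either direction at 1 week, at 2.5 weeks or over both times (0%, 0% and 0%), with 2012, 944 and 2678 genes at an unadjusted p under 0.05. DESeq2 called 867, 273 and 1766 genes and no enzyme in any of them. The spread in these libraries was large, with standard errors of 1.29 to 2.42 on the log2 scale for the enzymes at 1 week, so differences of several-fold were not detectable and the count of 0 does not show that the enzymes were alike.

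Cyp7b1 was the enzyme whose estimate pointed up. At 2.5 weeks it had 19.5, 14.9 and 22.9 CPM in homeostatic and 43.5, 60.6 and 85.1 CPM in fibrotic-like assembloids, with no overlap. Another 3 enzymes, Cyp7a1, Amacr and Baat, did not overlap at that time either, with the fibrotic-like libraries lower, and 4 overlapped. The share of all genes without overlap was not computed. At 1 week Cyp7b1 had 22.4, 0.205 and 9.74 CPM against 32.7, 119 and 4.84 CPM, with overlap. Its log2 differences were 1.69 ± 1.26 (adjusted p = 0.964) and 2.22 ± 1.29 (adjusted p = 0.472), and 1.95 ± 0.90 over both times (adjusted p = 0.277). It passed at 2.5 weeks in a fit of those 2 groups alone (1.73, adjusted p = 0.0229, with 5.45% of all genes higher), and over both times on the hepatocyte marker scale (3.16 ± 0.99, adjusted p = 0.0171), where 25.2% of all genes were higher.

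The other 7 estimates were negative at both times, from −5.12 ± 2.40 for Cyp8b1 to −1.23 ± 1.62 for Cyp27a1 at 1 week and from −2.04 ± 2.23 for Cyp7a1 to −0.57 ± 1.41 for Akr1d1 at 2.5 weeks. On log2(TPM + 0.1), 5 of these 7 changed sign at 1 week. Scaled to the hepatocyte markers, Amacr and Cyp27a1 changed sign at 1 week and Akr1d1 at 2.5 weeks. On log2(TPM + 1) the median of all genes moved from 0.20 to 0.87 at 1 week, with 733 genes higher and 2 lower.

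Without homeostatic replicate 2 at 1 week, the library low in hepatocyte markers, some enzymes passed as lower in fibrotic-like assembloids. At 1 week these were Amacr (−2.05 ± 0.49, edgeR adjusted p = 0.0447) and Baat (−3.27 ± 0.79, adjusted p = 0.0457), 2 of 8 against 4.87% of genes. Over both times they were Amacr (−1.44 ± 0.33), Slc27a5 (−2.00 ± 0.61), Baat (−2.27 ± 0.53) and Cyp8b1 (−3.70 ± 1.16), 4 of 8 against 13.4% of genes (highest adjusted p = 0.0388). Cyp7b1 stayed positive, at 1.67 ± 0.65 over both times (adjusted p = 0.0776). Fibrotic-like replicate 3 at 1 week, with 10630 CPM of hepatocyte markers, stayed in these fits. Scaled to the hepatocyte markers without the same homeostatic library, a setting chosen after seeing the data, Amacr changed sign at 1 week (0.60) and Baat did not.

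Cell type markers moved with these values. Hepatocyte markers summed to 55170, 73360 and 10630 CPM in fibrotic-like and to 213100, 4711 and 106900 CPM in homeostatic assembloids at 1 week, and to 115100, 38120 and 149200 against 140500, 142100 and 173300 CPM at 2.5 weeks. Mesenchyme markers summed to 2427, 6167 and 297 CPM against 119, 1038 and 299 CPM at 1 week, and to 1349, 4517 and 5050 against 172, 247 and 228 CPM at 2.5 weeks, with at most 1 of 9 markers at 0 in any assembloid library. Cholangiocyte markers summed to 6538 to 10760 CPM in assembloids, with at most 1 of 6 genes at 0. Krt19 had 193 to 1650 CPM in fibrotic-like and 36.8 to 64.6 CPM in homeostatic assembloids at 2.5 weeks, and 78.7 to 951 against 13.8 to 1387 CPM at 1 week. Krt7, Epcam and Sox9 were also higher in fibrotic-like assembloids at 2.5 weeks, without overlap. Spp1, most of the sum at that time, overlapped, with 5080 to 8637 CPM in fibrotic-like and 6351 to 10100 CPM in homeostatic assembloids, and Cftr overlapped too. The part of the cell mixture in the enzyme differences was not tested.

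Across the 12 assembloid libraries, as a description of points that share libraries and depth, the log2 level of each enzyme was set beside the mean log2 level of each marker list. With the hepatocyte markers, Pearson's r was 0.993 for Cyp27a1, 0.989 for Slc27a5, 0.961 for Amacr, 0.950 for Baat, 0.841 for Akr1d1, 0.755 for Cyp8b1, 0.643 for Cyp7a1 and 0.641 for Cyp7b1. Spearman's rho was 0.790 to 0.986 for the first 7 and 0.161 for Cyp7b1. Without the 2 libraries farthest from the median, r was 0.608 to 0.984 and −0.500.

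With the cholangiocyte markers, r was −0.821 to −0.705 for those 7 enzymes (rho −0.916 to −0.636) and −0.199 for Cyp7b1. With the mesenchyme markers it was −0.554 to −0.259 for the 7 (rho −0.713 to −0.448) and 0.493 for Cyp7b1 (rho 0.636, and r = 0.264 without the 2 farthest). Over the 11 libraries without homeostatic replicate 2 at 1 week, the values of Cyp7b1 with the mesenchyme markers became 0.795, 0.718 and 0.679.

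**Figure D4:**
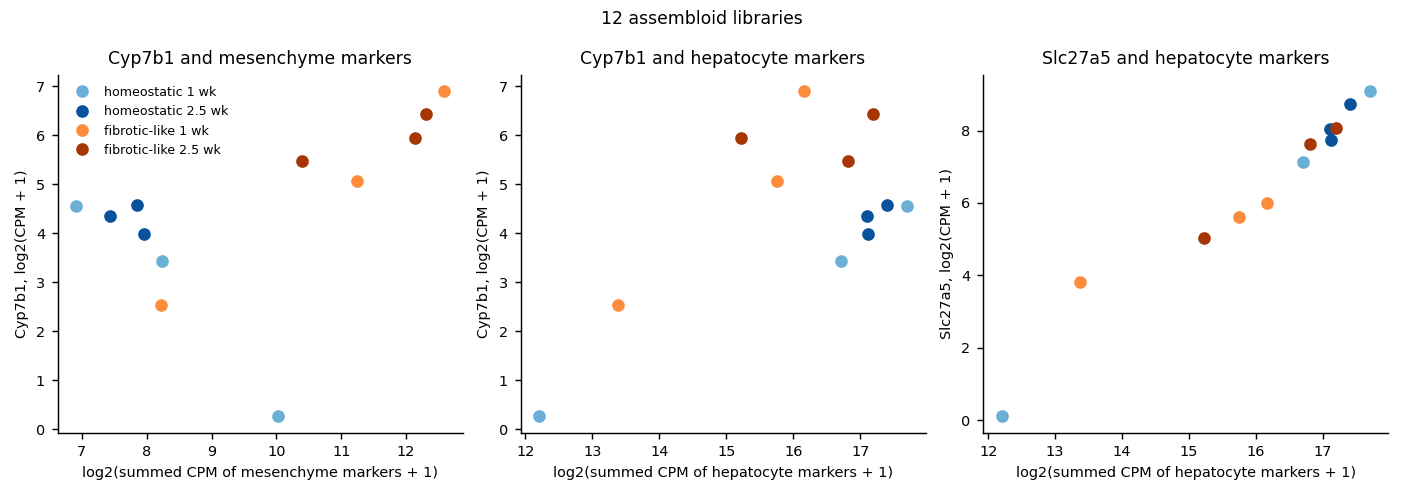
Cyp7b1 against the summed mesenchyme markers and the summed hepatocyte markers, and Slc27a5 against the summed hepatocyte markers, in 12 assembloid libraries (points, coloured by group; both axes log2(CPM + 1)). Slc27a5 rises along the hepatocyte sum from the library at 4711 CPM to that at 213100 CPM, while the 3 late fibrotic-like libraries lie above the homeostatic ones for Cyp7b1.

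Assembloids at 1 week were also compared with HepOrgs kept in MM for the same time, without added cholangiocytes and mesenchyme. Per the study's methods, the HepOrgs of assembloids were also taken out of Matrigel, picked by hand, aggregated and seeded again. That handling and the added cells cannot be told apart here. No enzyme and 0% of 13733 genes passed for homeostatic or fibrotic-like assembloids (0% each; 976 and 1512 genes at an unadjusted p under 0.05, and 261 and 731 genes called by DESeq2, with 0 enzymes). For fibrotic-like assembloids this depended on the library low in hepatocyte markers, although it is not in either group compared, because it enters the shared spread. With those 2 groups alone, 5 of 8 enzymes were lower against 10.9% of genes, namely Cyp7a1 (−5.18), Slc27a5 (−3.11), Cyp27a1 (−2.54), Baat (−2.32) and Amacr (−1.53, highest edgeR adjusted p = 0.046). Without that library, Slc27a5 (−3.11 ± 0.74), Cyp27a1 (−2.54 ± 0.71), Baat (−2.33 ± 0.47) and Amacr (−1.54 ± 0.33) were lower than in MM HepOrgs, 4 of 8 against 10.3% of genes (highest edgeR adjusted p = 0.04). On the hepatocyte marker scale Amacr and Baat changed sign there, to 0.83 and 0.22. On that scale without the library low in markers, a setting chosen after seeing the data, Cyp7a1 passed as lower. Cyp7b1 passed as higher in that setting (edgeR adjusted p = 0.044). The share of all genes called in that setting is not reported here.

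Other genes of the pathway, 14 in number, were all tested. In HM-Wnt 12 were lower and 1 higher than in fresh hepatocytes at 1 week, and 11 and 1 at 2 weeks. In MM the counts were 11 and 2 at 1 week and 10 and 2 at 2 weeks. Of all genes, 24.8% and 25.7% were lower in HM-Wnt and 21.3% and 20.0% in MM. In late assembloids 8 of the 14 were lower and 1 higher (homeostatic, 15.2% of all genes lower) and 12 lower and 1 higher (fibrotic-like, 20.9%). Their median log2 difference from fresh was −1.68, −1.65, −1.25 and −1.18 in the HepOrg groups and −1.23 and −1.72 in the assembloids, smaller in size than that of the 8 enzymes in each comparison.

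Cyp2a12, which acts on bile acids in mice, fell furthest in all 4 HepOrg comparisons, where fresh hepatocytes had 1019 to 1213 CPM. Its log2 differences were −6.07 ± 0.59 and −8.49 ± 0.66 in HM-Wnt and −4.10 ± 0.54 and −4.11 ± 0.54 in MM. Scp2, a sterol carrier with a thiolase of the side chain, fell by 3.71 ± 0.43 in HM-Wnt at 1 week (adjusted p = 1.64e-05). Cyp2c70, which makes muricholic acids, was at −4.38 ± 0.53 in HM-Wnt at 2 weeks. In late assembloids Cyp46a1, a cholesterol hydroxylase known from brain, was at −3.55 ± 0.60 (homeostatic) and −3.83 ± 0.60 (fibrotic-like).

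Ch25h, an enzyme that makes an oxysterol, went the other way. It had 0 counts in all 3 fresh libraries, so a fold is a bound against 3 counts in a fresh library (0.131 CPM). Its mean was at least 14.6-fold higher in MM HepOrgs at 1 week, at least 27.4-fold at 2 weeks, at least 14.6-fold in homeostatic and at least 176-fold in fibrotic-like assembloids at 2.5 weeks. The MM bounds rested on MM replicate 1 at 1 week and replicate 3 at 2 weeks, without which they were at least 4.75-fold and at least 6.99-fold. Levels were 19.4 to 25.6 CPM in the last of these and 0.385 to 8.96 CPM in MM HepOrgs. Cyp39a1, an oxysterol hydroxylase, was also higher in HepOrgs, by 2.89 ± 0.53 and 2.51 ± 0.52 in HM-Wnt and by 2.58 ± 0.52 and 2.77 ± 0.53 in MM. Cyp39a1 was named here after its values were seen.

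Between media, 8 of the 14 were higher in MM over both times and 0 lower (11.5% of all genes were higher). The largest changes were those of Cyp2a12 (3.17 ± 0.39, adjusted p = 4.63e-04) and Scp2 (2.25 ± 0.30, adjusted p = 7.36e-04). At 1 week 2 were higher (1.76% of all genes), Scp2 (1.94 ± 0.42) and the electron donor Fdx1 (0.66 ± 0.15). At 2 weeks 5 were higher (6.84% of all genes), led by Cyp2a12 (4.39 ± 0.59) and Scp2 (2.56 ± 0.43).

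Of the 9 regulators, Fgf15, the intestinal hormone that acts on hepatocytes, was at or near 0 in all libraries and was not tested. The other 8 were all lower than in fresh hepatocytes in HM-Wnt at both times, 7 of 8 in MM at 1 week and 6 of 8 in MM at 2 weeks. Of all genes, 24.8% and 25.7% were lower in HM-Wnt at 1 and 2 weeks and 21.3% and 20.0% in MM. The repressor Nr0b2 was at −6.45 ± 0.52 and −6.79 ± 0.53 in HM-Wnt and at −3.94 ± 0.45 and −2.92 ± 0.43 in MM. The receptor Fgfr4 was at −4.48 ± 0.47, −5.20 ± 0.49, −3.32 ± 0.44 and −3.45 ± 0.45, and its partner Klb at −4.14 ± 0.63, −4.59 ± 0.64, −2.21 ± 0.57 and −1.25 ± 0.55, of which the last did not pass (adjusted p = 0.0882).

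The bile acid receptor Nr1h4 was at −1.98 ± 0.44 and −2.58 ± 0.45 in HM-Wnt and did not pass in MM (−0.83 ± 0.42, adjusted p = 0.128, and −0.32 ± 0.42, adjusted p = 0.579). The sterol sensor Nr1h3 was between −2.36 and −1.39, and the activator Nr5a2 between −1.75 and −0.97. Hnf4a, a hepatocyte transcription factor, was between −1.07 and −0.73 and the repressor Mafg between −1.21 and −0.69, and all of these passed. Beside the enzymes, which fell in every HepOrg comparison, both activators and repressors of the pathway were therefore lower in HM-Wnt HepOrgs.

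In MM against HM-Wnt over both times, 6 of 8 regulators were higher (11.5% of all genes) and 0 lower. They were Nr0b2 (3.19 ± 0.34, adjusted p = 2.09e-04), Klb (2.64 ± 0.42), Nr1h4 (1.70 ± 0.31), Fgfr4 (1.45 ± 0.31), Nr1h3 (0.73 ± 0.22) and Nr5a2 (0.57 ± 0.16, adjusted p = 0.0252). Hnf4a (0.13 ± 0.15) and Mafg (0.10 ± 0.11) did not pass. The repressor Nr0b2 and Cyp7a1, a gene it is known to repress, were both higher in MM than in HM-Wnt. Whether Nr0b2 acted on Cyp7a1 in these cultures was not tested. In late assembloids 4 of 8 regulators were lower than in fresh hepatocytes in the homeostatic group (15.2% of all genes). In the fibrotic-like group 7 of 8 were lower (20.9% of all genes). In these 2 groups Nr0b2 was at −3.28 ± 0.78 and −3.53 ± 0.79 and Nr1h4 at 0.00 ± 0.52 and −1.18 ± 0.53.

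**Figure D5:**
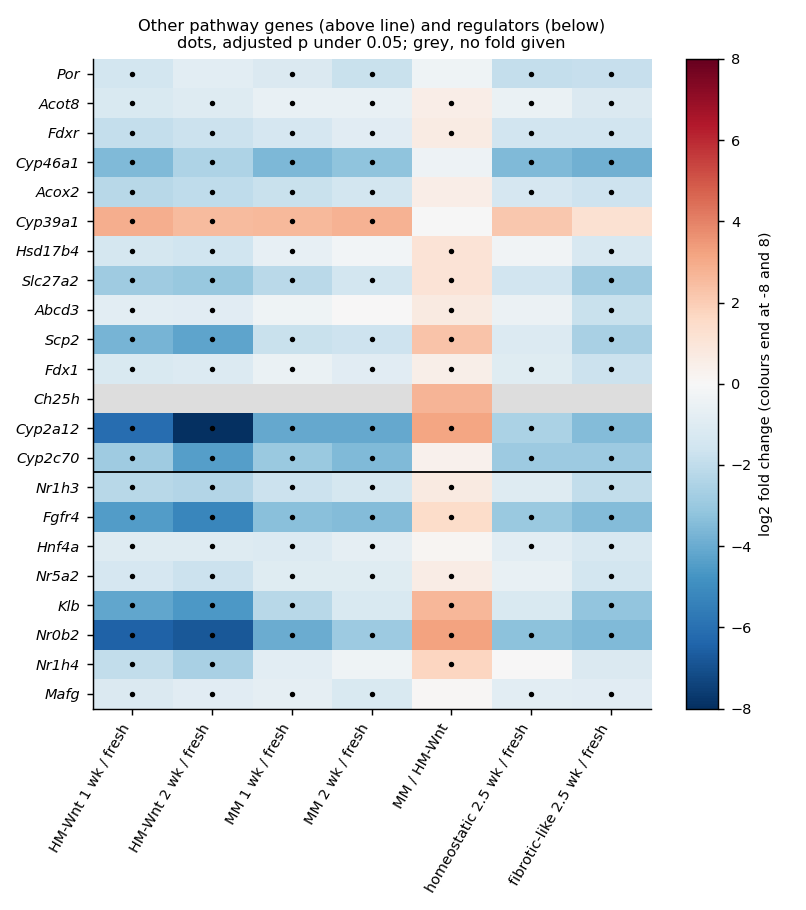
Log2 fold changes of 14 other pathway genes (above the line) and 8 regulators (below) in 7 comparisons, as colours that end at −8 and 8; dots mark an adjusted p under 0.05 in edgeR, and grey marks Ch25h against fresh hepatocytes, where it had 0 counts. The column of MM against HM-Wnt has dots on 8 pathway genes and 6 regulators, all of them higher in MM, as were 11.5% of all genes.

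The genes most alike each enzyme were ranked by Pearson correlation of log2 CPM over the 27 libraries, among 14270 genes, as a description. For Slc27a5 they were C8g, a complement subunit made in liver (0.994), Inhca (0.989) and Pipox (0.988), for Cyp27a1 Sema4g (0.990), Slc6a13 and Nags (0.988 each), for Amacr Chpt1 and Gcdh (0.991 each) and Galm (0.989), and for Baat Slc23a1 (0.987), Timd2 and Mtarc1 (0.986 each). Akr1d1 was most like Cyp4f14 (0.940), C8b (0.936) and Qdpr (0.928). The remaining hydroxylases were most like Slc22a30 (0.940), Ces1b (0.917) and Acaa2 (0.911) for Cyp7a1, Ugt3a2 (0.925) and Dpys (0.912) for Cyp8b1, and Abca9 (0.913) and Sec16b (0.912) for Cyp7b1.

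These lists changed without the library low in hepatocyte markers. Over 26 libraries the gene most like Cyp7b1 was Masp1 (0.932), followed by Cxcl12 (0.905) and Enho (0.904), and Cyp7a1 was most like Shld2 (0.955), Slc22a30 (0.931) and Aox3 (0.920). For Slc27a5 they were Hgd and C8g (0.984 each) and Inhca (0.978), and for Cyp8b1 Ugt3a2 (0.915), Psen2 (0.914) and Bco2 (0.907).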

How the data were processed

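Libraries (SMARTseq2, polyadenylated RNA) were prepared from the samples described above. Per the labels and the study's methods, the authors mapped reads to GRCm39 with STAR and deposited raw counts per gene from featureCounts. The strand setting of the counting is not given in the sources used here. The table holds 37 libraries, of which 10 could not be tied to a labelled condition here and were not used. The deposited TPM values were made by the authors and were entered as a signal scale, because the gene length in the table lies within 5% of the whole gene span for 80.8% of genes and of the merged exons for 7.1%. They serve as an alternative only, and levels per kilobase use merged exons of GENCODE M39.

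Counts were tested with edgeR 4.0.16 (R 4.3.3, TMM, quasi-likelihood test, low genes removed by filterByExpr at its settings of 10 for min.count and 15 for min.total.count), with Benjamini-Hochberg adjustment over all genes and a threshold of 0.05. The 2 reporter rows were left out. HepOrgs with fresh hepatocytes, HepOrgs alone, assembloids alone, assembloids with MM HepOrgs at 1 week, and late assembloids with fresh hepatocytes were fitted separately. Alternatives were DESeq2 1.42.0, limma 3.58.1 on log2(TPM + 1) and log2(TPM + 0.1) for genes with a TPM of at least 1 in at least 3 libraries, other size factors, other filters, scaling to 10 hepatocyte markers, the replicate number as a block, other sets of libraries and each library left out. Scripts were tested on simulated data. Total counts per library limit the precision of genes near 0, and intervals and floors cover counting error only.

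Replicate numbers come from the titles. In the HepOrg fit, same-numbered libraries deviated together in 18 of 18 pairs (r = 0.127 to 0.503), against 2 of 36 pairs with different numbers over 0.1. In the fit with fresh hepatocytes, 19 of 30 same-numbered pairs and 7 of 60 pairs with different numbers were over 0.1. Deviations from a group mean offset each other, so these counts are not independent. Blocked values between media are therefore given for each time, while the values over both times are without the block.

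All 9 members were named in every comparison, with all 9 regulators. Of 14 other pathway genes, the 2 called with the largest absolute change in a comparison were named, and the 3 most correlated genes for each member, leaving out predicted and Riken names. Some items named by these rules are not reported here. Members and lists were chosen with earlier results of these data known. Promoters are the 250 bases before the start of the canonical GENCODE M39 transcript, read from the GRCm39 genome, and all promoters of the same length are those of its protein-coding genes.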

Additional observations from a re-analysis of the deposited data

How the results depend on the processing

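Across the alternatives, 2135 single values of the enzymes kept their direction and their side of the threshold, 68 lost a call, 31 gained a call and 45 changed direction. Of the counts of enzymes called, 422 stayed within 1.5 times and 22 did not. In the fit of all 27 libraries, 4 enzymes were lower in HM-Wnt at 1 week against fresh (8.56% of all genes). In that fit 2 were lower in MM at 1 week (5.33%), 3 in MM at 2 weeks (5.35%) and 2 in homeostatic assembloids at 2.5 weeks (5.57%). There 0 were higher in MM than in HM-Wnt at 1 week, at 2 weeks and over both times (0.355% of all genes over both times). Between fibrotic-like and homeostatic assembloids, 1 was called in that fit over both times. Between media at 1 week, 3 enzymes were called by DESeq2, 0 with at least 10 counts in every library and 4 with the replicate block. DESeq2 called 1 enzyme between 2 weeks and 1 week in HM-Wnt and 1 in MM. Between fibrotic-like and homeostatic assembloids, 1 was called at 2.5 weeks with those 2 groups alone, Cyp7b1 as higher (5.45% of all genes higher). Over both times 1 was called on log2(TPM + 1) and 1 on the hepatocyte marker scale, Cyp7b1 as higher (25.2%). On that scale without homeostatic replicate 2 at 1 week, 2 were called over both times. Against MM HepOrgs, fibrotic-like assembloids had 5 enzymes called with those 2 groups alone, all lower (10.9% of all genes lower). On the marker scale without the same replicate 2 were called, Cyp7a1 lower and Cyp7b1 higher (edgeR adjusted p = 0.044 for Cyp7b1). That combined setting was chosen after seeing the data. Leaving out single libraries gave 0 to 2 calls between fibrotic-like and homeostatic assembloids at 1 week, 0 to 4 over both times and 0 to 4 between fibrotic-like assembloids and MM HepOrgs. Each was highest without homeostatic replicate 2 at 1 week, where 4.87%, 13.4% and 10.3% of all genes were lower. Where no share of all genes is printed in this paragraph, it is not reported here.

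The values that changed direction were not called. Between media at 2 weeks, Cyp27a1 went from 0.07 to −0.23 on log2(TPM + 1), −0.24 on log2(TPM + 0.1) and −0.26 on the marker scale. For fibrotic-like against homeostatic assembloids at 1 week, log2(TPM + 1), log2(TPM + 0.1), the marker scale and the marker scale without homeostatic replicate 2 gave 0.78, 1.78, 1.16 and 0.60 for Amacr and 0.54, 1.55, 0.70 and 0.12 for Cyp27a1. The TPM scales gave 0.45 and 1.27 for Slc27a5, log2(TPM + 0.1) gave 0.01 for Akr1d1 and 0.76 for Baat, and the marker scale without that replicate 0.08 for Akr1d1. At 2.5 weeks both marker scales gave 0.36 for Akr1d1. For homeostatic assembloids against MM HepOrgs, Amacr was at 0.23 on the marker scale without that replicate, and the TPM scales gave −1.01 and −1.99 for Baat and −1.27 and −2.37 for Cyp8b1. For fibrotic-like assembloids against MM HepOrgs both marker scales gave 0.83 for Amacr and 0.22 for Baat. Baat in late homeostatic assembloids against fresh went to 0.01 on the marker scale. With single libraries left out, values ranged between media at 2 weeks from −0.16 to 0.18 for Cyp27a1 and from −0.28 to 0.23 for Akr1d1, and between fibrotic-like and homeostatic assembloids at 1 week from −5.24 to 1.28 for Cyp7a1 and from −3.25 to 1.36 for Akr1d1. For homeostatic assembloids against MM HepOrgs they ranged from −1.09 to 0.51 for Amacr, −2.34 to 0.01 for Slc27a5, −2.94 to 0.43 for Akr1d1, −0.62 to 0.94 for Baat and −2.68 to 2.22 for Cyp8b1, and for fibrotic-like ones from −0.80 to 1.24 for Cyp7b1. The cause of these changes was not tested.

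The replicate block changed calls between media as given above, and outside the HepOrg fit, where libraries share only a number, that of Cyp8b1 in late homeostatic assembloids against fresh (adjusted p = 0.0235 in edgeR). In the assembloid fit 6 of 18 same-numbered pairs had a correlation over 0.1. Depth limits Cyp8b1 and Cyp7a1 most, which were at or under 1 CPM in many HM-Wnt and assembloid libraries.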
